A study of Rattus norvegicus with 24 samples.

Results

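Inflammasomes are cytosolic complexes in which a sensor protein meets a danger signal, recruits the adaptor ASC and activates the protease caspase-1. Caspase-1 then cuts the precursors of interleukin-1 beta and interleukin-18 and the pore-forming protein gasdermin D, while caspase-4 of the rat (caspase-11 in older names) senses lipopolysaccharide (LPS) inside the cell directly. Blood monocytes and neutrophils are known to carry much of this machinery. The 8 genes described here are the sensors Nlrp1a, Nlrp1b, Nlrp3, Nlrc4 and Aim2, the adaptor Pycard (which encodes ASC) and the caspases Casp1 and Casp4. They were taken as every array probe whose gene name equals one of these symbols, which gave 9 probes of 30367, with 2 for Nlrp1b.

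Blood RNA of male Sprague-Dawley rats, 8 weeks old at the start, was hybridized on 24 two-channel arrays, 4 for each of 6 groups. C-G0 rats ate a semi-synthetic diet and received saline, and LPS-G0 rats ate the same diet and received LPS. C-G1 and LPS-G1 rats ate that diet with 1% by weight of a high-molecular-weight oat beta-glucan (G1), and C-G2 and LPS-G2 rats ate it with 1% of a low-molecular-weight one (G2). The diets lasted 6 weeks, LPS was given at 10 mg/kg into the tail vein 2 times, 7 days apart, and blood was drawn from the heart after 12 h of fasting. The LPS groups are therefore a model of a repeated systemic challenge sampled once, not a time course. For LPS-G0 replicates 3 and 4 the sample title gives LPS and another label field gives control. They were used as LPS-G0, and for each member or pathway gene that passed a threshold in a comparison with LPS-G0 the value without them is given too.

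All values are log2 of the Cy3 over the Cy5 signal, where the other RNA on each array is a common reference. By the labels Cy3 marks the rat's own RNA and Cy5 the reference, whereas the study's methods have the dyes the other way round. Within groups, 7074 probes that were bright throughout had a median SD of 0.35 in Cy3 and 0.20 in Cy5. The labels were followed, and reading the dyes as the methods do would turn every sign below. That reading would also make Cy5, not Cy3, the channel in which to read detection. With the labels' reading, all 6 tested cytotoxic T and NK cell markers were higher in LPS-G0 vs. C-G0. Each had an unadjusted p under 0.05 by limma, where 15.2% of all probes did, and the median log2 fold change was 0.98. Gzma, Gzmb and Gzmk are among them, and the study reports these genes as up-regulated in LPS-challenged rats. For these genes the signs here therefore run the same way as the study's reported directions. Of the 6 markers, 0 had an adjusted p under 0.05 by limma. Their median log2 ratio per array ran from -1.55 (replicate 1) to -0.06 in C-G0 and from -0.05 to 0.63 in LPS-G0. LPS-G0 replicates 3 and 4, whose labels conflict, stood at -0.05 and 0.50. Per array, 7786 to 15385 probes were well above background in Cy3 by the scanner software's own flag. Every group was present on each of the 3 slides.

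The probe sequences are shown for the 5 genes that carry the results, because a 60-base probe reports only the transcripts it can pair with. Capitals mark the longest stretch that a probe shares with a probe of another gene on the array. All 5 are printed 5′ to 3′ as in the deposited files.
Nlrp1a: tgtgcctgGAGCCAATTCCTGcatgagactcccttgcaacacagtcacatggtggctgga
Aim2: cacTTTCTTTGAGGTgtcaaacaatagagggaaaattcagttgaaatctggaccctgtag
Pycard: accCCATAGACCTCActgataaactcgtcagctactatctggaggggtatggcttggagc
Casp1: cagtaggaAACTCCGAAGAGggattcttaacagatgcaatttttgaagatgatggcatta
Casp4: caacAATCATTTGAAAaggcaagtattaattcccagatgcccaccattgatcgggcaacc

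The shared stretches were 13 bases for Nlrp1a and 12 for the other 4. On the rn4 assembly named in the files, the Nlrp1a probe lies at chr10:57972925-57972984 on the minus strand, and the Pycard probe at chr1:187276921-187276980 on the minus strand. The Casp1 probe lies at chr8:2032917-2032976 and the Casp4 probe at chr8:2075044-2075103, a gap of 42.1 kb, both on the plus strand. The Aim2 probe lies at chr13:89639512-89639571 on the plus strand. The probes of neighbouring paralogs differ, with at most 6 bases in a row in common between Nlrp1a and Nlrp1b and at most 7 between Casp1 and Casp4. Exon, intron or UTR placement is not given, because no annotation of this assembly was used here.

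The sensors ranged from bright to not above background in Cy3. Nlrp1a, a sensor known for its response to anthrax lethal toxin in rodents, was well above background in Cy3 on 24 of 24 arrays, with a signal between 498 and 3380 and a median of 1440. Aim2, the sensor of cytosolic double-stranded DNA, was above background on 15 of 24 arrays and Nlrc4, which acts with NAIP proteins on bacterial flagellin and secretion systems, on 11 of 24. Nlrp3, the sensor that responds to potassium efflux and many other stresses, was above background on 0 of 24 arrays, with signals between 12.2 and 44.2. Both Nlrp1b probes were above background on 0 of 24 as well, with signals up to 45.8 and 24.3. In Cy5, Nlrp3 was above background on 10 of 24 arrays and the Nlrp1b probes on 1 and 4, whereas Nlrp1a, Nlrc4, Aim2, Pycard, Casp1 and Casp4 were so on 24 of 24. A dim probe gives only an upper limit, so these flags do not show that Nlrp3 or Nlrp1b was not expressed.

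Downstream of the sensors, Pycard and Casp1 were above background on 24 of 24 arrays, with median Cy3 signals of 1020 and 305, and Casp4 on 22 of 24, with a median of 127. The 2 arrays that missed Casp4 were both of C-G0. Signals of different probes are not comparable as levels, because each probe binds with its own strength. No probe of the 9 was saturated.

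**Figure D1:**
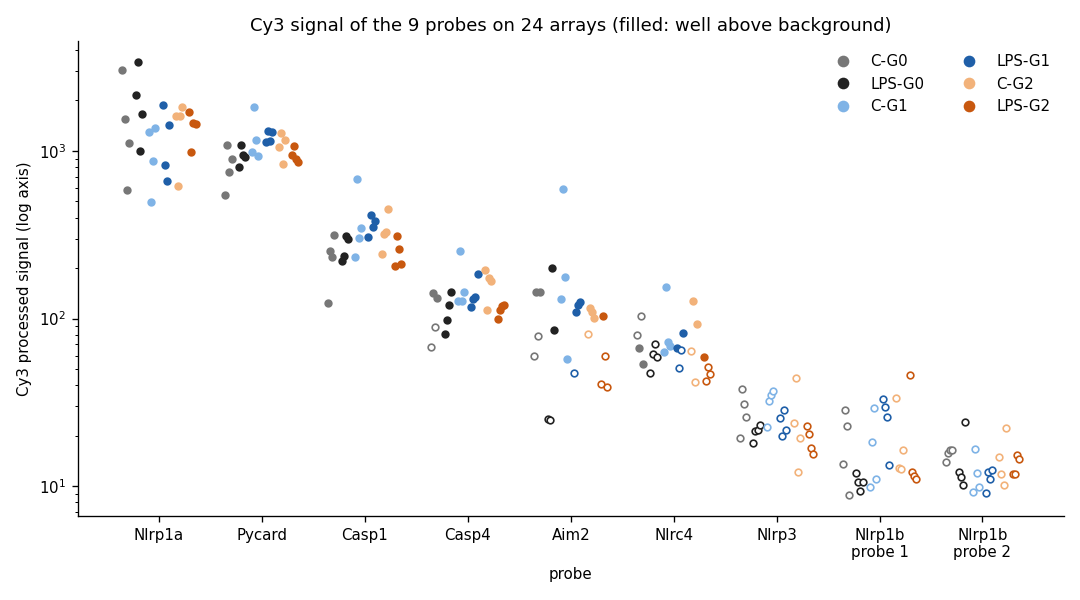
Cy3 processed signal (log axis) of each of the 9 probes on the 24 arrays, 1 point per array, coloured by group, with filled points where the probe was well above background. Nlrp1b probe 1 lies at the higher of its 2 positions on the chromosome. Nlrp1a, Pycard and Casp1 are filled on all 24 arrays, and Nlrp3 and both Nlrp1b probes on 0.

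A probe entered a test when some group had all 4 of its arrays flagged as above background in Cy3. In the fit of the 3 LPS groups with C-G0 (16 arrays, 10313 probes) this left 4 members, Nlrp1a, Pycard, Casp1 and Casp4. In the fit of all 24 arrays (10708 probes) Nlrc4 and Aim2 were tested too, and both passed only through C-G1, where they were above background on 4 of 4 arrays. Nlrp3 and Nlrp1b were tested in neither. Fold changes are from limma, with standard errors, and p-values were adjusted (Benjamini-Hochberg) across every probe in the fit. In blood, a lower value can stand for fewer cells of a type or for less RNA per cell, which cannot be told apart here.

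**Figure D2:**
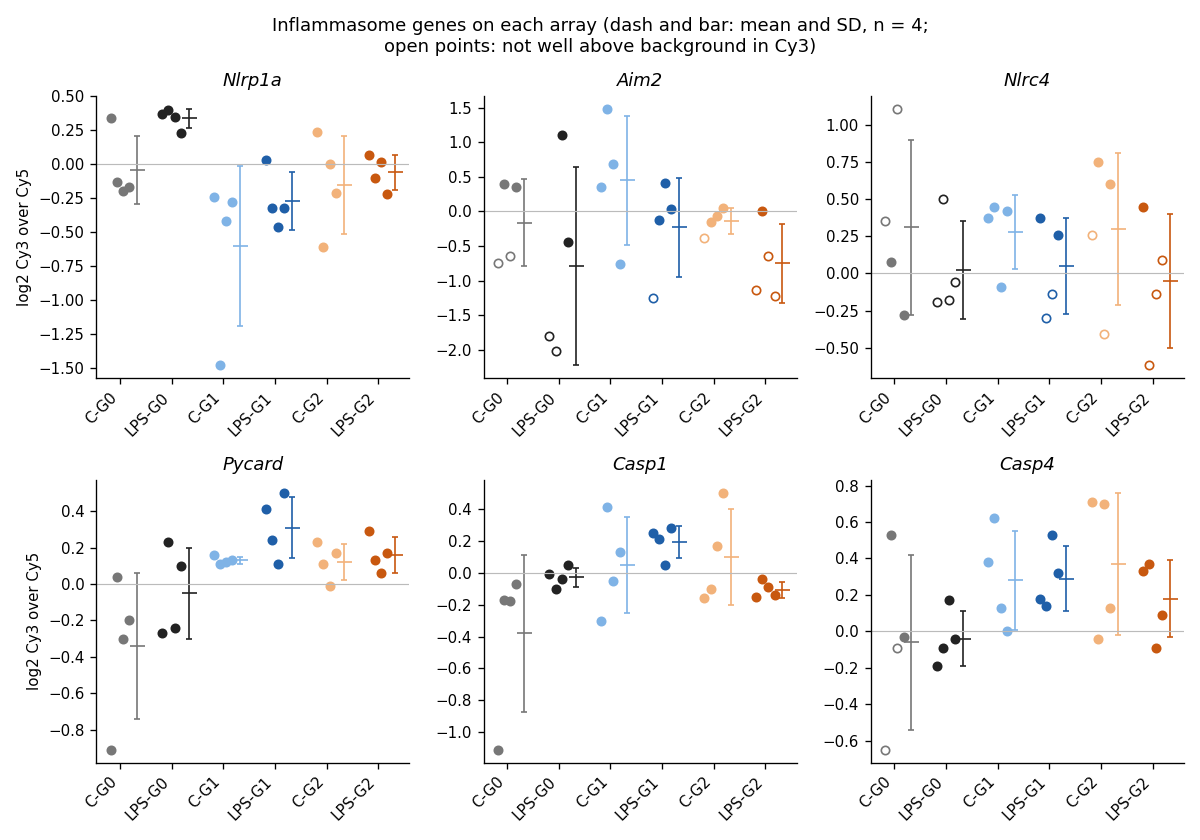
log2 Cy3 over Cy5 of the 6 tested members on each array, by group, with the mean and SD of the 4 arrays beside the points and open points where Cy3 was not well above background. In Nlrp1a the 4 LPS-G0 arrays (0.23 to 0.40) lie above all LPS-G1 and LPS-G2 arrays, while C-G0 replicate 1 lies far below the other C-G0 arrays in Casp1 and Pycard.

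Nlrp1a was the only member that changed at an adjusted p under 0.05 in any of the 11 comparisons. Its log2 ratios in LPS-G0 replicates 1 to 4 were 0.37, 0.40, 0.35 and 0.23. In LPS-G1 they were 0.03, -0.32, -0.46 and -0.32, so that every LPS-G1 array lay below every LPS-G0 array. Nlrp1a fell by 0.61 on the log2 scale in LPS-G1 vs. LPS-G0 (SE 0.15, adjusted p = 0.0289 by limma), 1.52-fold lower. The exact two-sided permutation test over the 70 arrangements of the 8 arrays gave p = 0.0286, the smallest it can give. In this comparison 8.93% of all probes passed the adjusted threshold and 8.39% were lower, so 1 member of 4 stands against a high background. The groups did not overlap for 21.9% of all probes. Within the 3 slides the difference was -0.36, -0.75 and -0.55. The call did not hold in Cy3 alone (log2 difference -0.67, adjusted p = 0.324) or without LPS-G0 replicates 3 and 4 (-0.65, adjusted p = 0.13). In both of these fits 0% of all probes passed. It was also lost when LPS-G0 replicate 1, 2 or 4 (adjusted p = 0.0886, 0.0643 and 0.0812) or LPS-G1 replicate 2, 3 or 4 (0.0958, 0.0706 and 0.105) was left out. The probes that passed in these fits numbered 0, 11 and 0, and 4, 2 and 0, against 921 in the main fit. Almost no probe therefore passed where the Nlrp1a call was lost in these fits.

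The other groups place Nlrp1a as follows. LPS-G2 arrays stood at 0.07, -0.10, 0.02 and -0.22, again all below LPS-G0, with a log2 difference of -0.40 (SE 0.15, adjusted p = 0.597 by limma) and, without LPS-G0 replicates 3 and 4, of -0.44 (adjusted p = 0.79). Groups that do not overlap made up 10.5% of all probes in that comparison. The C-G0 arrays stood at 0.34, -0.13, -0.20 and -0.17, so that replicate 1 reached the LPS-G0 range and the other 3 did not. LPS-G0 vs. C-G0 gave 0.38 (SE 0.15, adjusted p = 0.261 by limma), where 0.0097% of all probes passed. Without C-G0 replicate 1 this became 0.50 with an adjusted p of 0.0255, in a fit where 11% of all probes passed. It was 0.42 (adjusted p = 0.545) without LPS-G0 replicates 3 and 4. In C-G1 the arrays stood at -0.24, -1.48, -0.42 and -0.28, all below C-G0, for a difference of -0.57 (SE 0.22, adjusted p = 0.138 by limma). Replicate 2 set much of that size, since without it the difference was -0.27. In that comparison 0.028% of probes passed the adjusted threshold and 7.04% had groups that did not overlap. C-G2 arrays spread from -0.61 to 0.24.

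By group mean, Nlrp1a was highest in LPS-G0 (0.34 ± 0.07, SD, n = 4), followed by C-G0 (-0.04 ± 0.25), LPS-G2 (-0.06 ± 0.13), C-G2 (-0.15 ± 0.36), LPS-G1 (-0.27 ± 0.21) and C-G1 (-0.60 ± 0.59). Neighbours in this order from C-G0 down overlapped within their SDs. The effect of LPS on the G1 diet minus that on the G0 diet was -0.04 (95% interval -0.69 to 0.61, adjusted p = 0.999 by limma), and for the G2 diet it was -0.29 (-0.93 to 0.36, adjusted p = 0.868). In both, 0% of all probes passed the adjusted threshold, and by unadjusted p under 0.05 it was 3.01% and 5.57% of all probes and 0 members. A difference between diets in the response of Nlrp1a to LPS was thus not detectable, and the intervals are wide.

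The pattern of Nlrp1a over the 24 arrays was shared with many probes. The 3 genes most like it by Pearson's r of the log2 ratio were Ttbk1 (0.98), which encodes a tau kinase of neurons, Aqp4 (0.98), which encodes a water channel of astrocytes, and Zfp575 (0.97), which encodes a zinc finger protein. Without C-G1 replicate 2 the values were 0.96, 0.95 and 0.95. In all, 485 of the 10707 other tested probes, 4.53%, had an r of at least 0.9 with Nlrp1a, while the same number was 1 for Pycard and 0 for Casp1, Casp4, Aim2 and Nlrc4. Of the 485, 378 (77.9%) were lower in LPS-G1 vs. LPS-G0 at an adjusted p under 0.05 and 0 were higher, with a median log2 fold change of -0.65. Those arrays are among the 24 that chose the 485, so this direction follows from the choice and is a description. Their probes had a median GC content of 51.7%, against 45% over the tested probes and 55% in the Nlrp1a probe itself. These arrays share their reference RNA and slides, and the counts are a description of how one probe's pattern sits among the others.

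The values of Nlrp1a were correlated with red cell markers. Its r with the per-array median of 6 erythroid genes (of 7 listed, among them Hbb, Alas2, Slc4a1, Epb42 and Ahsp) was 0.73 and its rho 0.60 over 24 arrays, whereas with neutrophil markers r was -0.02 and with monocyte markers -0.04. The r of 0.73 rests in part on C-G1 replicate 2, the lowest array in both, at -1.48 for Nlrp1a and -1.21 for the erythroid median. In C-G1 vs. C-G0, 4 of the 6 erythroid genes were lower at an unadjusted p under 0.05, against 15.8% of all probes. At an adjusted p it was 0 of 6, against 0.028% of all probes. Their median log2 fold change was -1.05 (-0.89 without C-G0 replicate 1 and -0.77 without C-G1 replicate 2). Without C-G0 replicate 4, 2 of the 6 passed the adjusted threshold, as did 9.04% of all probes. In LPS-G1 vs. LPS-G0 the median was -0.22 and 1 of 6, Epb42, a protein of the red cell membrane, fell by 0.93 at an adjusted p of 0.0408 by limma. In that comparison 8.39% of all probes were lower at an adjusted p under 0.05. The adjusted p of Epb42 was 0.202 without LPS-G0 replicates 3 and 4, in a limma fit where 0% of all probes passed. Hbb, a hemoglobin chain on the same list, did not fall with it. Its arrays stood at -0.33, -0.55, 0.09 and -0.25 in LPS-G0 and at -0.62, 0.19, -0.02 and 0.03 in LPS-G1, and the groups overlapped. The median ratio per array of the erythroid list ran from 0.02 to 0.26 in LPS-G0, from -0.55 to 0.14 in LPS-G1 and from -1.21 to -0.33 in C-G1. The summed Cy3 signal of these genes was 644000 to 712000 in LPS-G0 and 553000 to 707000 in LPS-G1. The part of red cell RNA in the values of Nlrp1a was not tested.

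**Figure D3:**
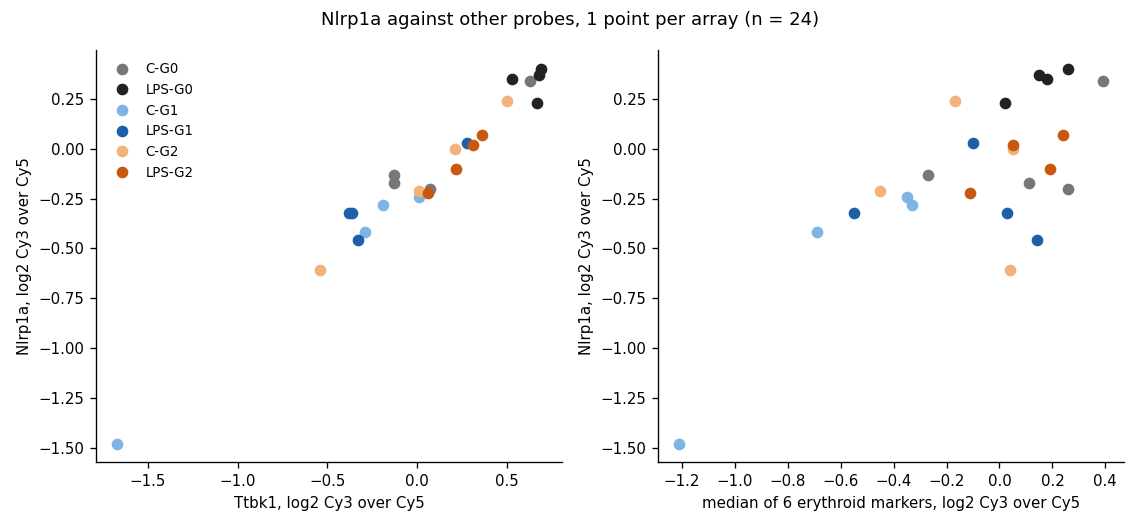
log2 Cy3 over Cy5 of Nlrp1a against that of Ttbk1 (left) and against the median of 6 erythroid markers (right), 1 point per array, coloured by group. Ttbk1 tracks Nlrp1a closely over the 24 arrays (r 0.98), the erythroid median less so (r 0.73), and C-G1 replicate 2 lies farthest out in both panels.

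The adaptor and the caspases passed the adjusted threshold in none of the 11 comparisons. Pycard, whose protein links sensors to caspase-1, stood at -0.91, 0.04, -0.30 and -0.20 in C-G0. In C-G1 it stood at 0.16, 0.11, 0.12 and 0.13, all above C-G0 and within a narrow range, and in C-G2 at 0.23, 0.11, -0.01 and 0.17. The groups did not overlap for 7.04% of all probes in C-G1 vs. C-G0. Pycard gave a log2 difference of 0.47 (SE 0.16, adjusted p = 0.13 by limma) in C-G1 vs. C-G0 and of 0.46 (SE 0.16, adjusted p = 0.252) in C-G2 vs. C-G0. Neither passed the adjusted threshold, nor did any other member, where 0.028% of all probes passed in each of the 2 comparisons. The low C-G0 replicate 1 carried part of both, since without it the differences were 0.28 and 0.27.

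Casp1, which encodes the protease at the centre of the complex, had the same low array. Its log2 ratios in C-G0 were -1.11, -0.17, -0.18 and -0.07. In LPS-G0 they were -0.01, -0.10, -0.04 and 0.05, a spread of 0.06 (SD, n = 4), and all but the array at -0.10 lay above every C-G0 array. C-G1 gave -0.30, 0.41, -0.05 and 0.13 and C-G2 gave -0.16, -0.10, 0.17 and 0.50, and both overlapped C-G0. The differences were 0.35 (SE 0.18, adjusted p = 0.367 by limma) for LPS-G0, 0.43 (SE 0.19, adjusted p = 0.161) for C-G1 and 0.49 (SE 0.19, adjusted p = 0.294) for C-G2, each against C-G0. Without C-G0 replicate 1 they were 0.11, 0.19 and 0.24. Pycard gave 0.29 (SE 0.19, adjusted p = 0.47) and Casp4 0.03 (SE 0.20, adjusted p = 0.969) in LPS-G0 vs. C-G0.

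By unadjusted p under 0.05, 3 of 6 tested members passed in C-G1 vs. C-G0 (Pycard, Nlrp1a and Casp1), where 27.9% of all probes did, and 2 of 6 in C-G2 vs. C-G0 (Pycard and Casp1), where 13.3% did. The 6 include Nlrc4 and Aim2, which entered the fit only through C-G1 and passed in neither. Nlrp1a alone of 4 passed in LPS-G0 vs. C-G0 (15.2% of all probes), and likewise when LPS-G1 (26.9%) or LPS-G2 (8.23%) was set against LPS-G0. No member of 4 passed in LPS-G1 vs. LPS-G2 (6.68%). Without C-G0 replicate 1 the count in C-G1 vs. C-G0 was 0 of 6, beside 1112 of 10725 probes. Without C-G1 replicate 2 it was 1 of 6, beside 1354 of 10856 probes. In the main fit 3 of 6 stood beside 2992 of 10708 probes, so the drop was not confined to the members.

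C-G0 replicate 1 stood apart in other genes too. The median log2 ratio of the cytotoxic T and NK cell markers was -1.55 on this array, that of the B cell markers -0.61, that of the erythroid markers 0.39 and that of the platelet markers 0.42, while the monocyte markers stood at -0.07. The summed Cy3 signal of the 7 listed monocyte markers, normalized between arrays, was 26400 on this array, the lowest of any array. It was 59200 to 76000 on C-G0 replicates 2 to 4. On C-G0 replicate 1 the median absolute log2 ratio over the probes was 0.49, as in C-G1 replicate 2. The other 22 arrays ranged from 0.16 to 0.34. The part of cell composition in the low Pycard and Casp1 values of C-G0 replicate 1 was not tested.

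In the LPS-injected rats Pycard, Casp1 and Casp4 stood somewhat higher on the G1 diet than on the G0 diet, without passing the adjusted threshold. Pycard was -0.27, 0.23, -0.24 and 0.10 in LPS-G0 and 0.41, 0.24, 0.11 and 0.50 in LPS-G1, a difference of 0.36 (SE 0.19, adjusted p = 0.221 by limma). Casp1 was 0.25, 0.21, 0.05 and 0.28 in LPS-G1, for a difference of 0.22 (SE 0.18, adjusted p = 0.432). Casp4 was -0.19, -0.09, 0.17 and -0.04 in LPS-G0 and 0.18, 0.14, 0.53 and 0.32 in LPS-G1, for a difference of 0.33 (SE 0.20, adjusted p = 0.295). For each of the 3, 1 LPS-G0 array reached the LPS-G1 range. The median over the 4 tested members was 0.28, beside 0.06 over all 10313 probes.

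On the G2 diet none of the 3 genes passed the adjusted threshold either. Pycard in LPS-G2 was 0.29, 0.13, 0.06 and 0.17, with a difference of 0.21 (SE 0.19, adjusted p = 0.73 by limma) from LPS-G0. Casp1 in LPS-G2 was -0.15, -0.04, -0.09 and -0.14, with a difference of -0.08 (SE 0.18, adjusted p = 0.909). All 4 LPS-G1 arrays of Casp1 therefore lay above all 4 LPS-G2 arrays, and the difference between the beta-glucans was 0.30 (95% interval -0.09 to 0.69, adjusted p = 0.679 by limma, exact permutation p = 0.0286). In that comparison 0% of all probes passed the adjusted threshold and 6.65% had groups that did not overlap. Casp4 in LPS-G2 was 0.33, 0.37, -0.09 and 0.09, 0.21 above LPS-G0 (SE 0.20, adjusted p = 0.749).

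**Figure D4:**
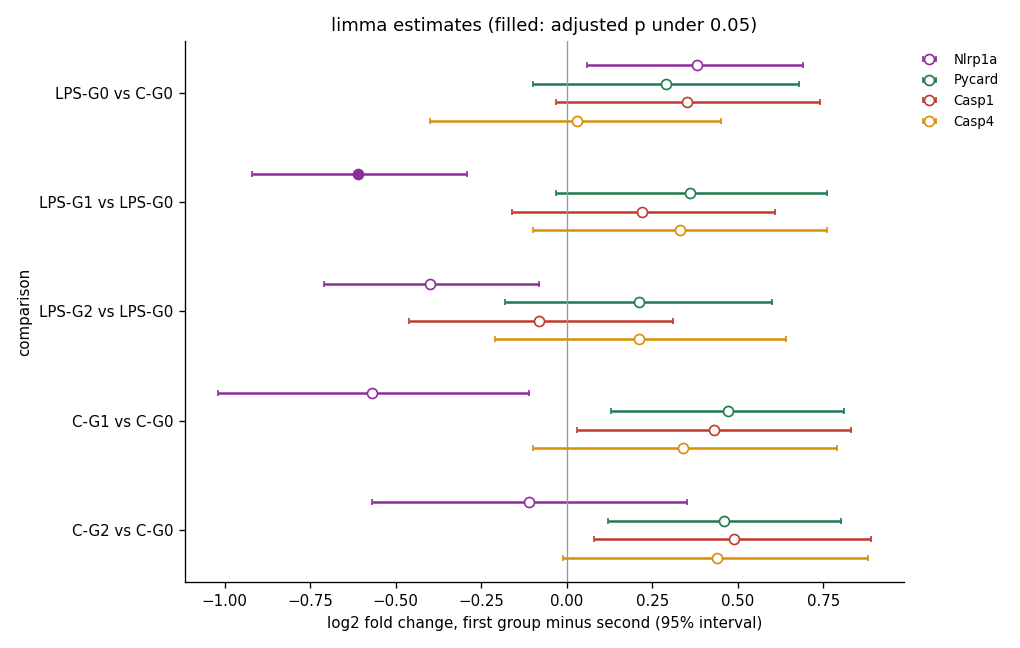
log2 fold changes (first group minus second) of Nlrp1a, Pycard, Casp1 and Casp4 with 95% intervals in 5 comparisons, filled where the adjusted p was under 0.05. The 1 filled point is Nlrp1a in LPS-G1 vs. LPS-G0 at -0.61, and Nlrp1a lies left of the other 3 genes wherever a beta-glucan diet is compared with the G0 diet.

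On the beta-glucan diets no member passed the adjusted threshold in LPS vs. saline. In LPS-G1 vs. C-G1, 0 of 6 members passed it and 0 passed the unadjusted one, where 0.00934% and 2.81% of all probes did. In LPS-G2 vs. C-G2 it was again 0 and 0 of 6, against 0% and 1.09% of all probes. C-G1 vs. C-G2 gave 0 and 0 of 6 against 0% and 15.4%, with Nlrp1a at -0.46 (SE 0.22, adjusted p = 0.325 by limma). In each of these counts the 6 include Nlrc4 and Aim2, which entered the fit only through C-G1. Casp1 had the largest difference between diets in its response to LPS, -0.56 for the G2 diet minus the G0 diet (95% interval -1.13 to 0.00, adjusted p = 0.832), which was -0.32 without C-G0 replicate 1.

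The dim sensors allow little. Aim2 was the most variable member, with arrays from -2.02 to 1.49. In LPS-G0 it stood at -1.81, -2.02, 1.1 and -0.44, and in C-G1 at 0.36, 1.49, 0.68 and -0.76, so both groups were spread widely. In C-G0 it stood at -0.75, 0.40, -0.65 and 0.35, above background on 2 of 4 arrays, and these values lay within the range of C-G1. As Aim2 and Nlrc4 entered the fit only through C-G1, no difference is given for C-G1 vs. C-G0. The 2 spots of the Aim2 probe differed within an array by a median SD of 0.30, against 0.05 for Nlrp1a, 0.04 for Pycard and 0.08 for Casp1. Nlrc4 ranged from -0.62 to 1.11 and was above background on 0 of 4 arrays in LPS-G0 and 2 of 4 in C-G0. Its Cy3 signals of 53.6 to 103 in C-G0, 47.1 to 70.3 in LPS-G0 and 50.5 to 81.7 in LPS-G1 overlapped, so no fold is given.

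The members differed in how their values ran together. Over the 24 arrays Pycard and Casp1 had an r of 0.69 and a rho of 0.31, Pycard and Casp4 0.58 and 0.37, and Casp1 and Casp4 0.49 and 0.21. Nlrp1a had negative r with the other 5, from -0.19 with Nlrc4 to -0.59 with Aim2. Among the genes most like Pycard were Lmo2 (0.90, rho 0.76), a transcription cofactor of blood precursors, and Gngt2 (0.88, rho 0.68), a G protein subunit. Among those most like Casp1 were Psmb2 (0.90, rho 0.72), a proteasome subunit, and Ccdc53 (0.87, rho 0.76). C-G0 replicate 1 was the lowest array in Pycard, Casp1 and each of these genes, and r gives it much weight. Those most like Casp4 were Anxa4 (0.77), Tmem176b (0.77) and Acaa2 (0.75). For Aim2 they were Slc28a2 (0.75), Rad23b (0.74) and Aff4 (0.72), and for Nlrc4 Baz1a (0.71), Klf6 (0.65) and Mettl9 (0.63). Values not marked rho are Pearson's r, and all are over 24 arrays that share a reference and are given as a description.

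The rest of the pathway was read from 40 further genes, of which 38 were on the array and 24 were tested in the 16 arrays. They comprise the cytokines and what releases them, cytokine receptors, inhibitors and decoys, other sensors, activators and scaffolds, and other caspases. In LPS-G1 vs. LPS-G0, 1 of 24 passed the adjusted threshold, against 8.93% of all probes. This was Sugt1, a co-chaperone that helps NLR proteins fold, which fell by 0.58 (SE 0.17, adjusted p = 0.0418 by limma). Its arrays stood at 0.55, 0.62, 0.39 and 0.49 in LPS-G0 and at 0.15, -0.19, -0.10 and -0.15 in LPS-G1, with no overlap, as for 21.9% of all probes. The second Sugt1 probe pointed the other way, at 0.41 (adjusted p = 0.256), so the gene's direction is not settled. The called probe followed Nlrp1a over the 24 arrays with an r of 0.94 and a rho of 0.87. Without LPS-G0 replicates 3 and 4 its adjusted p was 0.134, in a fit where 0% of all probes passed. By unadjusted p under 0.05, 2 pathway genes were higher and Sugt1 lower, against 7.59% and 19.3% of all probes. Brcc3, a deubiquitinase that acts on NLRP3, was at 0.73 (SE 0.24, adjusted p = 0.0637), and Bcl2, an inhibitor of cell death that binds NLRP1, at 0.56 (SE 0.20, adjusted p = 0.0892). When LPS-G0 replicates 3 and 4 were left out, Brcc3 was at 0.80 (unadjusted p = 0.0105 by limma) and Bcl2 at 0.42 (unadjusted p = 0.125).

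In LPS-G2 vs. LPS-G0 no pathway gene passed the adjusted threshold, and each gene named here had an adjusted p of 0.597. By unadjusted p under 0.05, 6 of the 24 genes were higher and 1 lower, against 2.62% and 5.61% of all probes, and 0% passed the adjusted threshold. Il1b, the cytokine that caspase-1 matures, was -0.73, -0.83, -0.30 and -0.56 in LPS-G0 and 0.31, 0.38, 0.68 and -0.54 in LPS-G2, a difference of 0.81 (SE 0.25). Its LPS-G2 arrays lay above LPS-G0 except replicate 4. Il1rn, the receptor antagonist, was -0.47, -0.30, -0.63 and -0.45 in LPS-G0 and 0.35, 0.13, -0.03 and -0.14 in LPS-G2, without overlap, at 0.54 (SE 0.18). Il1r2, the decoy receptor, also had no overlap, at 0.66 (SE 0.24), and neither had Mefv, which encodes the sensor pyrin, at 0.62 (SE 0.23). Groups did not overlap for 10.5% of all probes. Pstpip1, which binds pyrin, was at 0.46 (SE 0.18) and Brcc3 at 0.53 (SE 0.24). The gene with a lower value was Sugt1, at -0.41 (SE 0.17). Among the other listed interleukin-1 genes, Il1a, Il1r1 and Il1rap were above background on 1, 0 and 3 of 24 arrays and were not tested.

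Neutrophil markers stood higher in the same comparison. Of 5 tested of 9 listed, 4 were higher at an unadjusted p under 0.05, against 2.62% of all probes, and 0 at an adjusted p. Their median log2 fold change was 0.65, beside -0.02 over all probes. S100a8, a calcium-binding protein abundant in neutrophils, was -1.03, -0.48, -0.39 and -0.84 in LPS-G0 and 0.60, -0.37, 0.88 and -0.17 in LPS-G2. The median ratio of the list per array was -0.65 to -0.26 in LPS-G0 and -0.20 to 0.72 in LPS-G2, and its summed Cy3 signal 9630 to 16600 and 13600 to 35600. Of the defining granule genes, Ltf was above background on 0 arrays, Mmp8 on 6, Lcn2 on 7 and Mpo on 9 of 24. Monocyte markers had a median of 0.30, with 1 of 5, Lyz2, higher at an unadjusted p under 0.05. Without LPS-G0 replicates 3 and 4 the medians were 0.59 and 0.46, with 3 of 5 and 1 of 5 genes higher. The part of the neutrophil share in the pathway values was not tested. Without LPS-G0 replicates 3 and 4, Il1b stood at 0.99 and Mefv at 0.75 with unadjusted p-values of 0.00734 and 0.025, whereas Il1rn (0.46), Il1r2 (0.54) and Pstpip1 (0.36) had values of 0.0698, 0.0958 and 0.139 in the same limma fit. Brcc3 (0.60) and Sugt1 (-0.48) had 0.0438 and 0.0467.

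**Figure D5:**
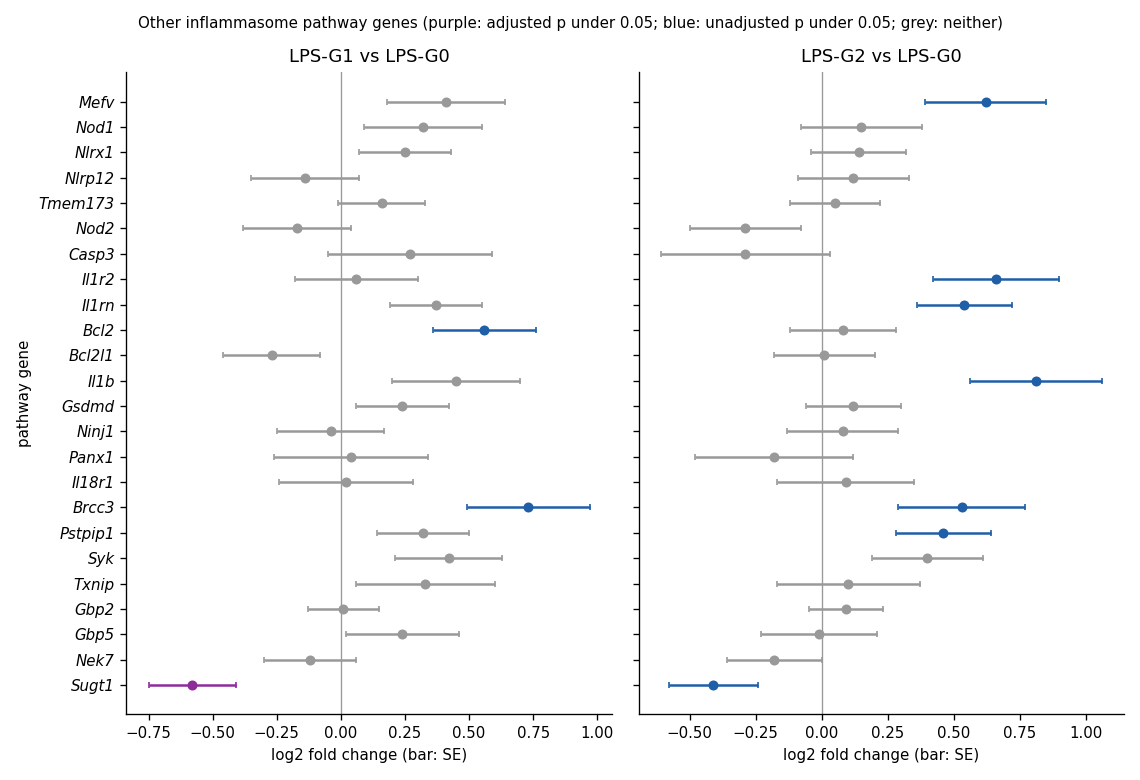
log2 fold changes with SE of the 24 tested pathway genes other than the 8 members in LPS-G1 vs. LPS-G0 (left) and LPS-G2 vs. LPS-G0 (right), grouped by role. Sugt1 at -0.58 on the left is the 1 gene with an adjusted p under 0.05, and Il1b at 0.81 is the highest on the right.

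In the saline groups, 0 of 26 tested pathway genes passed the adjusted threshold in C-G1 vs. C-G0, where 5 were higher and 3 lower at an unadjusted p under 0.05 (12.1% and 15.8% of all probes). The lowest was Bcl2l1, which encodes the survival factor Bcl-xL, at -1.01 (SE 0.25, adjusted p = 0.104 by limma), and its other 3 probes ranged from -1.26 to -0.45. Sugt1 stood at -0.63, with -0.02 for its second probe, and Nlrx1, a mitochondrial NLR protein, at -0.42. Among the 5 higher ones were Brcc3 (0.56), Nod1 (0.49), Syk (0.41, with -0.08 for its second tested probe) and Gsdmd (0.36), the last being the pore former that caspase-1 cuts. These values rest in part on a pair of arrays. Without C-G0 replicate 1 Bcl2l1 was at -0.88, Sugt1 at -0.44, Nlrx1 at -0.29, Brcc3 at 0.31, Nod1 at 0.21 and Gsdmd at 0.17. Without C-G1 replicate 2 Bcl2l1 was at -0.68, Sugt1 at -0.37 and Nlrx1 at -0.25. Without C-G0 replicate 4 Bcl2l1 (-1.05, adjusted p = 0.0232) and Sugt1 (-0.73, adjusted p = 0.0489) passed by limma, as did 9.04% of all probes. Bcl2 was the 1 gene past the unadjusted threshold in C-G2 vs. C-G0, at -0.59 (SE 0.19, adjusted p = 0.233), and in LPS-G0 vs. C-G0, at -0.49 (SE 0.20, adjusted p = 0.271). The latter was -0.35 (unadjusted p = 0.199 by limma) without LPS-G0 replicates 3 and 4. Lower values past that threshold made up 7.84% and 4.44% of all probes. Its groups did not overlap in either comparison, as for 2.62% and 5.03% of all probes, and both comparisons use the same C-G0 arrays.

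Between the beta-glucans, Bcl2 stood at 0.48 and Il1r2 at -0.60 in LPS-G1 vs. LPS-G2 (both adjusted p = 0.679 by limma), 1 higher and 1 lower of 24 at an unadjusted p under 0.05, against 2.16% and 4.52% of all probes. In C-G1 vs. C-G2 Bcl2 stood at 0.47, Bcl2l1 at -0.54 and Il1r2 at -0.83 (adjusted p = 0.323 for each), 1 higher and 2 lower of 26, against 5.33% and 10% of all probes. Nek7, which binds NLRP3, stood at -0.40 in LPS-G1 vs. C-G1 (adjusted p = 0.95), 1 lower of 26 against 0.822%. The difference between the G1 and G0 diets in the response to LPS had an unadjusted p under 0.05 for Bcl2l1 (0.75), Bcl2 (0.68) and Nlrx1 (0.67), each with an adjusted p of 0.999, against 1.89% of all probes with a higher value. Between the G2 and G0 diets this was so for Bcl2 (0.68, adjusted p = 0.832), against 3.18%. Without LPS-G0 replicates 3 and 4 none of these passed the unadjusted threshold, with p-values of 0.133, 0.104 and 0.0562 for Bcl2l1, Bcl2 and Nlrx1 on the G1 diet and 0.106 for Bcl2 on the G2 diet by limma. The other Bcl2l1 probes gave 0.70, 0.94 and -0.11 on the G1 diet.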

How the data were processed

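Per the labels, blood RNA was labelled with Cy3 and a pooled reference with Cy5, on Agilent SurePrint G3 Rat 8x60K arrays. The deposited intensity of each channel was background-subtracted and dye-balanced by Lowess in Agilent Feature Extraction, version 10.10.1.1 per the file headers and 10.7.3.1 per the submitters' processing notes. The deposited log10 ratio (Cy5 over Cy3) is 0 in every spot where the software had put a surrogate in both channels, and in 55.3% of spots not well above background in either. It was turned into log2 Cy3 over Cy5. The authors' table of log10 ratios holds 1511424 values identical to those of the single arrays.

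Of 62976 spots, 58717 were not controls. Outlier spots (679 to 1133 per array) were left out and spots of a probe averaged. A probe counted as well above background where at least 50% of its spots did. Groups of 4 labelled biological replicates were compared with limma 3.58.1 in R 4.3.3 (two-sided), for 9 pairs of groups and 2 interactions. The number of arrays limits the precision. In data simulated for LPS-G1 vs. LPS-G0 (10293 probes, 200 changed) the fit recovered 68% of 2-fold and 98% of 4-fold changes. The simulated noise was independent between probes. Changes under 2-fold, such as those of the tested members, were not simulated, so the rates do not cover them. Named genes were all members, up to 8 pathway genes per comparison with the smallest unadjusted p under 0.05 and the 3 genes most like each member. Some of these genes are not reported here. A gene's brightest probe stood for it. Summed Cy3 signals of a marker list are linear sums over all its genes on the array, tested or not, so bright genes weigh most. They were taken after quantile normalization of the mean intensity between arrays (Aquantile in limma), unlike the Cy3 signals of single probes. The members and lists were chosen with earlier results of these data known. Replicate numbers were checked as pairs: for no comparison did all 4 pairs of arrays correlate above 0.1, so they were not used as pairs. Alternatives covered background correction, Cy3 alone, filters, arrays fitted, slide, replicate block, variance trend, array weights, the methods' ANOVA, centring, the value table and each array left out.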

Additional observations from a re-analysis of the deposited data

Results flagged for a closer look

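Among 36 sets of 4 arrays (6 members by 6 groups), 4 held an array far from the other 3 by Dixon's criterion, where chance gives about 1 in 20. In C-G0, replicate 1 was at 0.34 for Nlrp1a (nearest array -0.13) and at -1.11 for Casp1 (nearest -0.18). In C-G1, replicate 2 was at -1.48 for Nlrp1a (nearest -0.42) and replicate 3 at -0.09 for Nlrc4 (nearest 0.37).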

How the results depend on the processing

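Nlrp1a kept its sign in LPS-G1 vs. LPS-G0 under every alternative run (from -0.71 to -0.54). The count of members past the adjusted threshold there went from 1 to 0 with Cy3 alone, no filter, all 24 arrays and the methods' ANOVA. It did so too without LPS-G0 replicates 3 and 4, whose labels conflict, and was 0 to 1 with single arrays left out. Over all probes 0% passed with Cy3 alone, with no filter and without those replicates. The share was 0.028% with all 24 arrays, against 8.93% in the main fit. Nlrp1a had an adjusted p of 0.0842 with no filter, 0.122 with 24 arrays and 0.132 by the ANOVA with Tukey's test. In LPS-G0 vs. C-G0 the count rose from 0 to 1 (Nlrp1a) with array weights, and was 0 to 1 with single arrays left out. The median over the tested members there (0.32) was -0.29 with no filter, which brings dim probes in, and 0.13 with array weights, and 0.11 to 0.38 with single arrays left out. In C-G1 vs. C-G0 (0.39, with Nlrc4 and Aim2 among the members though they entered only through C-G1) it was 0.15 with normexp and -0.03 with no filter. It was 0.05 there with array weights and 0.17 to 0.52 with single arrays left out. In C-G2 vs. C-G0 (0.23) it was 0.02 with no filter and 0.46 for probes bright in both channels, a filter that gave 0.04 in LPS-G2 vs. C-G2 (-0.20). Array weights moved the G2 interaction from -0.24 to 0. Where not stated, the cause was not tested. Other direction changes were those of Casp4 in LPS-G0 vs. C-G0 (-0.19 to 0.22) and of Nlrc4 and Aim2 in C-G2 vs. C-G0. With the replicate number as a block, 1 member passed in LPS-G1 vs. LPS-G0 (Nlrp1a, -0.61, adjusted p = 0.0126) and 0 in every other comparison, and the medians were 0.32 in LPS-G0 vs. C-G0 and 0.39 in C-G1 vs. C-G0, so the block changed no call of a member. The block brought 4 values of pathway genes past the adjusted threshold by limma. Bcl2l1 (0.0421) and Sugt1 (0.0471) passed in C-G1 vs. C-G0, where 600 probes passed against 3 without it. Bcl2 (0.0369) and Brcc3 (0.0461) passed in LPS-G1 vs. LPS-G0, where 12.3% of all probes did, against 8.93% without it. The correlation of same-numbered arrays averaged between -0.0463 (LPS-G1 with LPS-G0) and 0.329 (C-G2 with C-G0). Dim signal limits Nlrp3, Nlrp1b, Nlrc4 and Aim2.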
